A study of Mus musculus with 24 samples.

Results

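The integrin and laminin genes were taken by gene name from the array annotation, as every *Itga*, *Itgb*, *Lama*, *Lamb* and *Lamc* gene with a measured probe. This gave 26 integrin genes, of which 17 encode alpha and 9 encode beta subunits, and 11 laminin genes, together 37 of 27398 gene names and 82 of 41174 probes. No probe carried the name *Itgad*. RNA came from L4 and L5 dorsal root ganglia (DRGs) of adult male *Nfil3* KO mice and WT littermates on a C57BL/6J background. The groups were WT control, WT day 2, WT day 5, KO control, KO day 2 and KO day 5, with 4 samples in each. Days are counted from a sciatic nerve lesion, in which the nerve of the left hind leg was cut and its ends joined again, and control DRGs came from the side that was not injured, without a label for the animal. The KO allele of *Nfil3*, which encodes a transcriptional repressor, was made by crossing a floxed line with mice that carry Cre, driven by a human CMV promoter, in their germ cells. The labels call the tissue DRG neurons, but whole DRGs were dissected, and markers of glia, macrophages and fibroblasts were well above background beside those of neurons. All levels below are log2 intensities of the brightest probe of a gene, and levels of different probes are not set against each other.

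Integrins are cell surface receptors made of an alpha and a beta subunit. They tie the cytoskeleton to the extracellular matrix, and those with the beta subunit *Itgb1* form the main laminin and collagen receptors of neurons and glia. Laminins are cross-shaped trimers of an alpha, a beta and a gamma chain that build the basal lamina around each Schwann cell, the sheet along which peripheral axons regrow. Leukocytes use a set of their own, in which *Itgal*, *Itgam* or *Itgax* pairs with *Itgb2*.

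Most of the 37 genes could be measured. The scanner software marked 27 of them as well above background in all 24 samples, and all 37 in at least 5 samples. *Itga2*, *Itga10*, *Itga8*, *Lama1* and *Lamc3* were the dimmest, each above background in 10 or fewer samples. Over all probes, 54.5% to 72.3% were well above background in a sample, and replicates of a group correlated at 0.964 to 0.984. *Nfil3* read 8.52 to 9.11 in WT controls and 10.42 to 11.16 after lesion in WT, against 2.89 to 6.28 in 11 of the 12 KO samples. The library labelled KO control replicate 4 read 7.66 for *Nfil3*, below every WT sample and above every other KO sample, and 1 of its label fields gives day 5 in place of control. Its injury markers lay among those of the controls for *Atf3* (9.73, against 7.31 to 10.08 in WT controls) and *Sprr1a* (11.51, against 5.88 to 11.78), although the upper ends are from WT control replicate 4 and the other KO controls read 7.53 to 9.11 and 5.53 to 8.22. It was kept as a control. The counts of members that passed and the changes of the members named in the F test were also computed without it. Separations of samples, fold changes set against a detection floor, intervals, gene lists and cell markers were computed only with it.

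Over both genotypes together, the lesion was followed by higher levels of a small set of integrins and laminins. *Itga7*, *Itgb1*, *Itgam*, *Itga5*, *Lama5* and *Lamb3* were higher at both time points, although the call of *Itga5* at day 2 was lost under several alternatives. *Itgax* and *Itgb5* passed at day 5 but not at day 2, and *Itgb8* at day 2 but not at day 5, each against control. *Itga11*, *Itga9*, *Itgb3* and *Itgb6* were lower at day 2. *Itga3* was slightly higher at day 2 and slightly lower at day 5. By the F test of limma over both time points, 12 of the 37 genes changed at an adjusted p under 0.05, or 32.4%. The share over all 27398 gene names was 26.3%, and it was 36.1% over the 19449 gene names well above background in at least 4 samples, so the members were called about as often as other genes. The 12 consisted of 10 integrins and 2 laminins. *Itgb5* and *Itgb8* passed at a single time point but not in the F test (adjusted p = 0.097 and 0.0857), and 23 genes passed nowhere.

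More members were higher than lower, whereas over the whole array slightly more genes were lower. At day 2, 12 members passed (22.3% of all genes), with 8 higher (9.4% of all genes) and 4 lower (12.9%). At day 5, 9 members passed (23.1% of all genes), with 8 higher (10.1%) and 1 lower (13%). Over gene names well above background in at least 4 samples, as all members were, 30.6% passed at day 2 (12.8% higher, 17.8% lower). At day 5 that share was 31.8% (13.9% higher, 17.9% lower), against 24.3% of the members. The median change of the 37 genes was 0.21 at day 2 and 0.17 at day 5 on the log2 scale, against -0.02 and -0.03 over all gene names. These shares are descriptions, since the members were chosen as a family and no test of the family was made. The scatter of single members was wide, as the plot of lesion changes shows.

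**Figure D1:**
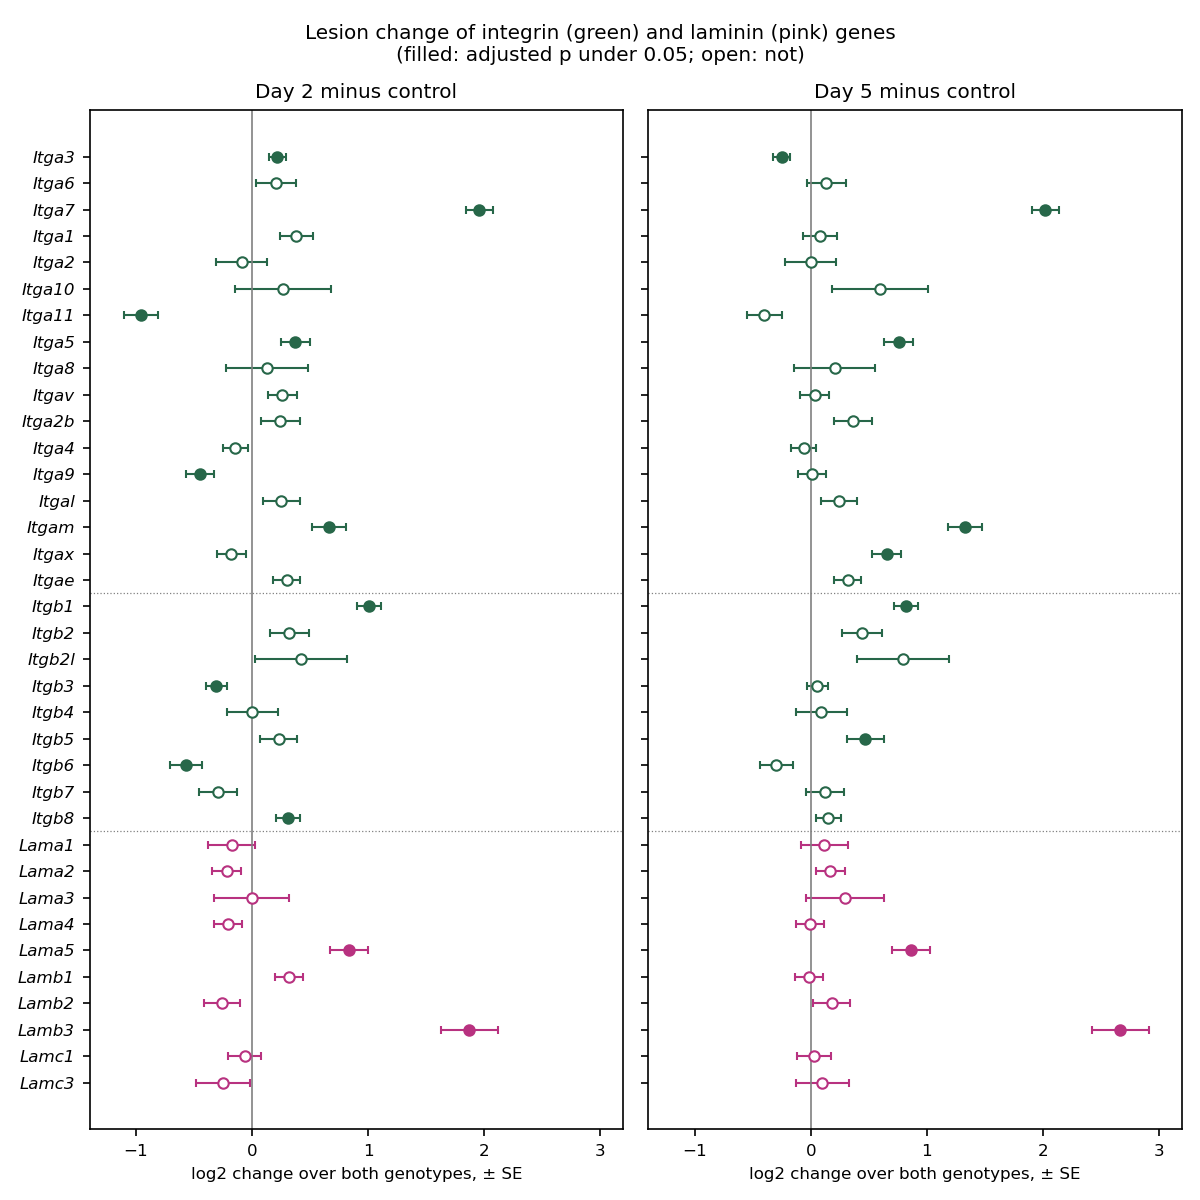
Log2 change from control over both genotypes at day 2 (left) and day 5 (right) for the 26 integrin genes (green) and 10 of the 11 laminin genes (pink), with bars for 1 SE and filled points for adjusted p under 0.05 (limma). *Itga7* and *Lamb3* stand farthest to the right at both time points, and *Itga11* farthest to the left at day 2.

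The 3 genes whose lesioned samples all lay above all control samples at both time points were *Itga7*, *Itgb1* and *Lamb3*. Over all gene names, 2.96% had this separation (4.17% of those well above background in at least 4 samples). For *Lamb3* it rests on controls, and on a lesioned sample, that were not above background. A 60-base probe of each gene is shown to place what was measured, and the values of *Itgb1* and *Lamb3* come from the probes printed here, whereas those of *Itga7* by sample come from its brighter probe. Positions follow the mm9 coordinates of the array annotation. The *Itga7* probe lies at chr10:128390852-128390911 on the plus strand and is the dimmer of the gene's 2 probes. The *Itgb1* probe lies at chr8:131246349-131246408 on the plus strand and is the brightest of 3. The *Lamb3* probe, the only one of its gene, covers chr1:195167088-195169619 on the plus strand. That stretch is 2532 bases long, so that the probe crosses at least 1 splice junction and matches spliced RNA only.
Itga7: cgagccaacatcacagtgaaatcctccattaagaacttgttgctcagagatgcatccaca
Itgb1: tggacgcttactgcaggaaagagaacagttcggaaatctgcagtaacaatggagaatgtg
Lamb3: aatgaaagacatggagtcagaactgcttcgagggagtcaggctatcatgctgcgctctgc

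*Itga7*, the alpha subunit of a laminin receptor of muscle and of regrowing peripheral axons, had the largest change among the integrins. WT controls read 9.74, 9.97, 10.15 and 10.12, WT day 2 samples 12.06, 12.31, 11.93 and 12.06, and WT day 5 samples 12.05, 12.13, 12.03 and 12.24. KO controls read 9.86, 10.12, 10.10 and 10.17, KO day 2 samples 12.04, 11.73, 11.37 and 12.42, and KO day 5 samples 11.72, 12.00, 12.14 and 12.09. The lowest lesioned sample lay more than 1 log2 unit above the highest control, and the lesion groups of the genotypes overlapped. Over both genotypes *Itga7* was 3.89-fold higher at day 2 (log2 change 1.96, SE 0.12, adjusted p = 1.26e-10, limma) and 4.05-fold higher at day 5 (2.02, SE 0.12, adjusted p = 5.38e-11). The second probe, whose sequence is printed above, gave 1.94 and 2.12. *Itga7* was already at its day 5 level at day 2, with a difference between the time points of 0.06 (95% interval -0.18 to 0.30). Among the other laminin-binding alpha subunits, *Itga6* changed by 0.21 and 0.13, which did not pass. *Itga3* rose by 0.22 at day 2 (SE 0.07, adjusted p = 0.038) and fell by 0.25 at day 5 (adjusted p = 0.0149), and all 8 of its day 5 samples lay below all 8 day 2 samples. The day 2 rise of *Itga3* was lost in 9 of 24 fits that left out 1 sample, among them that without KO control replicate 4 (0.21, adjusted p = 0.0656), and with the replicate number as a block.

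*Itgb1*, the beta subunit that pairs with *Itga7* and with most alpha subunits for laminin, collagen and fibronectin, rose with it. WT controls read 8.91, 9.002, 8.97 and 8.82, WT day 2 samples 9.93, 10.02, 9.83 and 10.54, and WT day 5 samples 10.10, 9.50, 9.97 and 9.68. KO controls read 9.26, 8.83, 9.12 and 9.16, KO day 2 samples 9.89, 10.04, 9.79 and 10.11, and KO day 5 samples 10.00, 9.77, 9.93 and 9.68. No lesioned sample reached down to a control. The change was 2.01-fold at day 2 (log2 change 1.01, SE 0.11, adjusted p = 5.71e-07, limma) and 1.77-fold at day 5 (0.82, SE 0.11, adjusted p = 6.41e-06). A second probe gave 0.83 and 0.71, and the remaining one, well above background in only 2 samples, gave 0.00 and 0.23.

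Among the other beta subunits, those that pair with *Itgav*, which did not itself pass (0.26 and 0.03), moved in different directions. *Itgb5* was higher by 0.47 at day 5 (SE 0.16, adjusted p = 0.0412) and *Itgb8*, an activator of TGF-beta, by 0.31 at day 2 (SE 0.11, adjusted p = 0.0374). *Itgb6*, with the same function in epithelia, was lower by 0.57 on the log2 scale, 1.48-fold, at day 2 (SE 0.14, adjusted p = 0.00589), and a second probe of it also passed, at both time points. *Itgb3*, the beta subunit shared by the vitronectin and platelet fibrinogen receptors, was lower by 0.31 at day 2 on its brightest probe (SE 0.09, adjusted p = 0.0154). Its second probe gave 0.09 and did not pass, and with probes averaged *Itgb3* was no longer called. *Itgb4*, the partner of *Itga6* in the basal lamina contacts of myelinating Schwann cells, changed by 0.00 and 0.09 and did not pass. *Itgb7* and the *Itgb2*-like gene *Itgb2l* did not pass either. For 3 genes whose brightest probe missed the F test a dimmer probe passed it, namely *Itgav* (0.20 at day 2 and -0.20 at day 5), *Itgb8* (0.43 and 0.23) and the laminin gene *Lama3* (0.30 and 0.04).

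*Lamb3*, the beta chain of an epithelial laminin that also holds *Lama3*, was below background in every control and detected after the lesion. WT controls read 3.83, 2.40, 2.85 and 2.42, WT day 2 samples 5.35, 5.15, 4.81 and 4.99, and WT day 5 samples 5.68, 5.65, 5.41 and 5.97. KO controls read 3.46, 3.67, 2.57 and 3.70, KO day 2 samples 5.62, 5.06, 3.85 and 5.08, and KO day 5 samples 5.27, 6.12, 6.01 and 6.12. All lesioned samples lay above all controls, although the lowest of them, KO day 2 replicate 3, was itself not above background and exceeded the highest control, WT control replicate 1, only slightly. *Lamb3* was well above background in 0 of 8 controls, 6 of 8 day 2 samples and 8 of 8 day 5 samples. Since no control was detected, fold changes were set against a floor. Against it *Lamb3* was 2.52-fold higher at day 2 (adjusted p = 1.06e-05, limma on measured values) and 4.37-fold higher at day 5 (adjusted p = 6.95e-08). For this floor, each control channel was put at its own value or, where that was lower, at the dimmest signal that counted as detected on that channel. The folds are not strict lower bounds, since brighter spots can be marked as not detected. *Itga8* in KO control replicate 4, at 5.09, was such a spot. The day 2 mean also holds undetected samples at their measured values. Normexp with an offset of 50 gave log2 changes of 0.32 and 0.57 for *Lamb3*.

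For *Lama3*, the alpha chain that joins *Lamb3*, 1 control decided the result of the brightest probe. A dimmer probe passed the F test with all samples kept, with its larger change at day 2, as given above. WT control replicate 4 read 8.49, against 5.10 to 5.73 in the other 7 controls, 5.39 to 6.08 in the day 2 samples and 5.75 to 6.28 in the 7 day 5 samples with a value. The day 5 samples thus lay above all controls but that one. With it, *Lama3* changed by 0.00 at day 2 and 0.29 at day 5, which did not pass (adjusted p = 0.633 at day 5, limma). Without it, the changes were 0.38 at day 2 (adjusted p = 0.0326) and 0.67 at day 5 (adjusted p = 0.000584), and both passed. WT control replicate 4 had the lowest share of probes well above background, 54.5%, against 61.1% or more in the other samples. Among the controls it also read highest for *Atf3* (10.08) and *Sprr1a* (11.78). Without this library 13 members passed at day 5 in place of 9.

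*Lama5*, the alpha chain of laminins of vessel walls and of many adult basal laminae, rose as well. Beside *Lamb3* it was the only laminin to pass on its brightest probe with all samples kept. WT controls read 6.79, 6.54, 6.84 and 6.50, WT day 2 samples 7.43, 8.06, 8.01 and 7.15, and WT day 5 samples 7.53, 7.62, 7.27 and 7.63. KO controls read 6.19, 7.08, 6.57 and 6.47, KO day 2 samples 7.71, 6.88, 6.79 and 7.65, and KO day 5 samples 7.32, 7.69, 7.28 and 7.53. All day 5 samples lay above all controls, while 2 KO day 2 samples overlapped with them. The change was 1.79-fold at day 2 (log2 change 0.84, SE 0.16, adjusted p = 0.000776, limma) and 1.82-fold at day 5 (0.86, SE 0.16, adjusted p = 0.000492). The chains that make up the laminins of the Schwann cell basal lamina, *Lama2*, *Lama4*, *Lamb1*, *Lamb2* and *Lamc1*, were measured in all samples and none passed. Among these 5, the largest change was that of *Lamb1* at day 2 (0.32, SE 0.12, adjusted p = 0.0687). Of 6 endothelial markers (*Pecam1*, *Cdh5*, *Kdr*, *Tek*, *Tie1* and *Emcn*), 1 passed, *Pecam1* (0.29 at day 2 and 0.17 at day 5).

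Among the collagen-binding alpha subunits, *Itga11*, which is typical of fibroblasts, fell at day 2. WT controls read 8.20, 8.01, 8.40 and 7.88, WT day 2 samples 7.21, 7.38, 7.49 and 7.24, and WT day 5 samples 8.16, 7.51, 7.67 and 7.85. KO controls read 7.78, 8.11, 8.57 and 8.49, KO day 2 samples 6.63, 6.92, 7.78 and 7.11, and KO day 5 samples 7.64, 7.86, 7.93 and 7.60. Of the 8 day 2 samples, 7 lay below all controls, and 4 of the 8 day 5 samples did. *Itga11* fell 1.94-fold at day 2 (log2 change -0.96, SE 0.15, adjusted p = 7.29e-05, limma), and at day 5 the change of -0.40 did not pass (adjusted p = 0.0595). The difference between day 5 and day 2 was 0.56 (adjusted p = 0.0426). *Itga1*, *Itga2* and *Itga10*, the other members of the class, did not pass. Of 7 markers of fibroblasts and pericytes, 2 changed by the F test, *Lum* upwards (0.47 and 0.81) and *Rgs5* downwards (-0.04 and -0.71). At day 2 none passed, with a list median of -0.24. At day 5, 1 was higher and 2 were lower, with a median of 0.18. *Itga9*, a receptor subunit for tenascin and osteopontin, followed a course like that of *Itga11*, lower by 0.45 at day 2 (SE 0.12, adjusted p = 0.011) and at 0.01 at day 5, while *Itga4* changed by -0.14 and -0.06 and did not pass.

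*Itga5*, the alpha subunit of the fibronectin receptor, lay close to background and rose slowly. WT controls read 4.66, 4.35, 4.76 and 4.37, WT day 2 samples 4.56, 4.91, 4.84 and 4.50, and WT day 5 samples 5.19, 5.00, 5.16 and 5.21. KO controls read 4.03, 4.50, 4.03 and 3.44, KO day 2 samples 4.61, 4.60, 4.19 and 4.91, and KO day 5 samples 4.99, 4.94, 4.91 and 4.80. All day 5 samples lay above all controls, and the day 2 samples overlapped with both. The change was 1.30-fold at day 2 (log2 change 0.37, SE 0.13, adjusted p = 0.0372, limma) and 1.69-fold at day 5 (0.76, SE 0.13, adjusted p = 0.000114). The lowest of its values was that of KO control replicate 4. Without that library the day 5 change was 0.66 and still passed, and the day 2 change of 0.28 did not (adjusted p = 0.0792). In all, the day 2 call was lost in 10 of 24 fits that left out 1 sample and under 5 of 14 other settings, with 0.06 without background subtraction. The other subunits that recognise the RGD motif, *Itga8*, *Itgav* and *Itga2b*, did not pass.

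Among the leukocyte alpha subunits, *Itgam* and *Itgax* passed. *Itgam*, the CD11b chain of macrophages, microglia and neutrophils, read 5.60, 4.42, 4.84 and 5.49 in WT controls, 5.46, 5.91, 5.77 and 5.73 at WT day 2, and 6.32, 6.64, 6.26 and 6.73 at WT day 5. It read 5.01, 5.12, 5.15 and 4.93 in KO controls, 5.56, 5.34, 6.02 and 6.08 at KO day 2, and 6.35, 6.30, 6.24 and 6.32 at KO day 5. The 8 day 5 samples lay above all other 16 samples, and the day 2 samples overlapped with the WT controls. *Itgam* was 1.59-fold higher at day 2 (log2 change 0.67, SE 0.15, adjusted p = 0.00243, limma) and 2.51-fold higher at day 5 (1.33, SE 0.15, adjusted p = 9.80e-07), with a difference of 0.66 between the time points (adjusted p = 0.0141). A second probe gave 0.99 and 1.47.

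*Itgax*, the CD11c chain of dendritic cells and activated macrophages, was higher at day 5 alone. WT controls read 5.26, 5.60, 5.55 and 5.66, WT day 2 samples 5.63, 5.43, 5.24 and 5.58, and WT day 5 samples 6.26, 6.12, 6.52 and 6.25. KO controls read 5.55, 5.35, 5.15 and 6.06, KO day 2 samples 5.02, 5.18, 5.04 and 5.63, and KO day 5 samples 5.80, 6.26, 6.16 and 6.04. All day 5 samples lay above all day 2 samples, and they overlapped with the controls only through the 6.06 of KO control replicate 4. The change was -0.18 at day 2 (adjusted p = 0.355) and 0.65 at day 5 (SE 0.12, 1.57-fold, adjusted p = 0.000434, limma), or 0.74 at day 5 without that library. A second probe of *Itgax*, above background in 10 samples, gave -0.14 and -0.03 and did not pass. Their shared partner *Itgb2* (0.32 and 0.44), the lymphocyte subunit *Itgal* (0.25 and 0.24) and *Itgae*, found on tissue-resident T cells (0.30 and 0.32), had positive values that did not pass.

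Macrophage markers rose along with *Itgam*, and with *Itgax* only at day 5 and on its brightest probe. All 8 markers (*Cd68*, *Aif1*, *Csf1r*, *Emr1*, *Cd14*, *Ptprc*, *Cx3cr1* and *Mrc1*) were higher at day 5, with a median change of 1.68, and 4 of them were higher at day 2, with a median of 0.46. Their mean level ranged over the samples from 7.12 to 7.78 in WT controls, 7.83 to 8.46 at WT day 2 and 8.99 to 9.26 at WT day 5. In KO samples it ranged from 7.10 to 7.70 in controls, 7.47 to 8.34 at day 2 and 8.76 to 9.12 at day 5. Of the neutrophil markers 0 of 5 passed, with median changes of 0.73 at day 2 and 0.94 at day 5 and mean levels that varied from 7.55 in a WT day 5 sample to 11.26 in a KO day 5 sample. Of the T cell markers 0 of 6 passed, and their mean level stayed between 4.82 and 5.38 in all samples. In whole DRGs, more cells of a type and more RNA per cell cannot be told apart, and the part of macrophage number in these changes was not tested. Of 8 neuronal markers, 5 were lower at each time point, with *Nefh* at -0.74 and -0.84, and 1 was higher at day 5. The list's median was -0.44 at day 2 and -0.62 at day 5. The cell type in which *Itga7* rose was not tested.

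**Figure D2:**
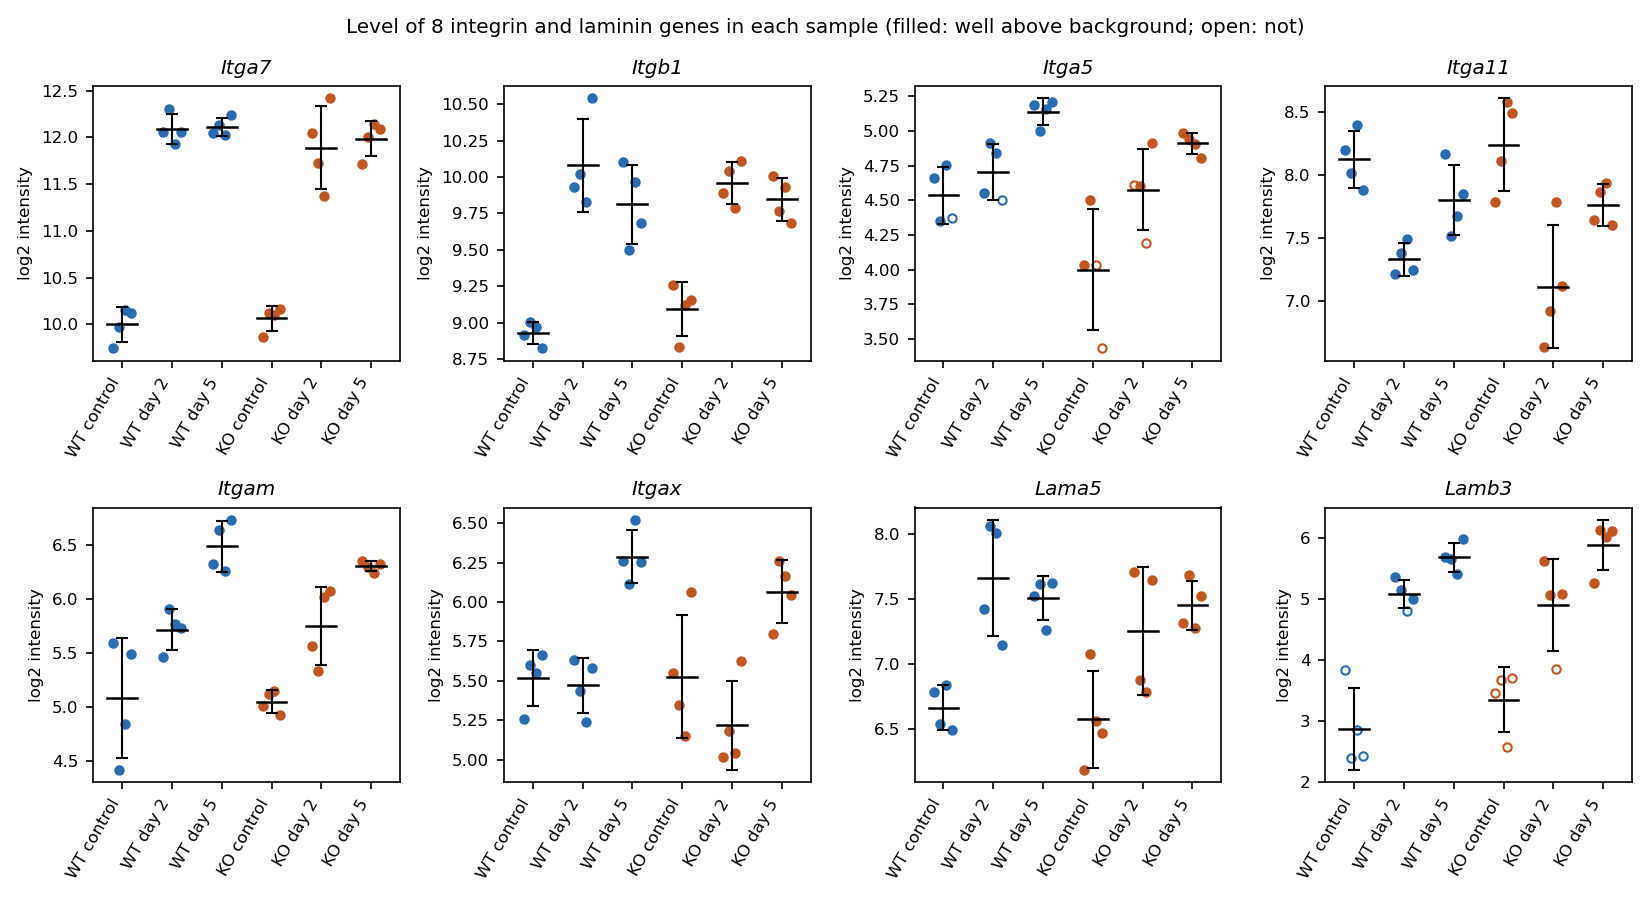
Log2 intensity of 8 members in each of 24 samples, WT in blue and KO in orange, with lines for the group mean and bars for 1 SD (n = 4); open points were not well above background. *Itga7* and *Itgb1* separate all lesioned samples from all controls, the controls of *Lamb3* are all open points, *Itgam* and *Itgax* separate day 5 from day 2, and *Itga11* is lowest at day 2.

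Some members still moved between the time points. By the contrast of day 5 minus day 2, 6 of 37 passed, or 16.2%, against 3.34% of all genes, with 5 higher (2.34% of all genes) and 1 lower (1%). Over gene names well above background in at least 4 samples the share was 4.59%, with 3.24% higher and 1.34% lower. The 5 were *Itgam*, *Itgax*, *Itga11*, *Itga9* and *Itgb3*, and the lower one was *Itga3*. Of the 5, *Itgam* rose further above the control level, *Itgax* climbed past it and the other 3 returned towards it. *Itga11*, *Itga9* and *Itgb3* lay near the threshold, with adjusted p of 0.0426, 0.0421 and 0.0248, and leaving out any of 4 libraries (WT day 2 replicate 1, WT day 2 replicate 2, WT day 5 replicate 3 or KO day 5 replicate 3) left 3 members.

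Within each genotype, 4 samples stood against 4. In WT, 5 members passed at day 2 (11.2% of all genes), of which 4 were higher (5.15%) and 1 lower (6%), and 7 at day 5 (13.7%), all higher (6.39% higher and 7.35% lower over all genes). In KO, 7 passed at day 2 (11.9%), of which 5 were higher (5.51%) and 2 lower (6.36%), and 7 at day 5 (12.7%), all higher (6.12% higher and 6.62% lower over all genes). Over gene names well above background in at least 4 samples, 15.4% passed at day 2 and 19.1% at day 5 in WT. In KO these shares were 16.2% and 17.6%. The 7 of day 5 were *Itga5*, *Itga7*, *Itgam*, *Itgax*, *Itgb1*, *Lama5* and *Lamb3* in both genotypes. Of these, *Itgax* changed by 0.77 in WT and by 0.54 in KO, where it passed only narrowly (adjusted p = 0.0492, limma). *Itga7* rose by 2.11 in WT and 1.92 in KO at day 5, *Itgam* by 1.40 and 1.25, *Itgb1* by 0.89 and 0.76, *Itga5* by 0.60 and 0.91, and *Lama5* by 0.84 and 0.88. Against the floor described above, *Lamb3* was 3.69-fold higher in WT and 5.16-fold higher in KO at day 5. At day 2, *Itga7*, *Itgb1*, *Itga11* and *Lamb3* passed in each genotype, *Lama5* in WT only (1.00, against 0.68 in KO, adjusted p = 0.066), and *Itga5*, *Itgam* and *Itgb3* in KO only. Passing in 1 genotype alone does not show a difference between them, and the interaction tested below did not pass for any of these genes.

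The study asked which genes depend on *Nfil3*. For the integrins and laminins no difference between KO and WT passed limma's test in controls (0 of 37, 0% of all genes), at day 2 (0 of 37, 0.0073% of all genes) or at day 5 (0 of 37, 0.0109% of all genes). In controls even the deleted gene *Nfil3* did not pass. It read 2.99, 3.82, 4.39 and 7.66 in KO controls, against 8.52 to 9.11 in WT controls. The control contrast can therefore miss a real difference. At an unadjusted p under 0.05 the counts were 2, 2 and 0, with *Itga5* at -0.54 and *Lama3* at -0.99 in controls and *Lamb1* at -0.37 and *Lamc3* at -0.83 at day 2. Without WT control replicate 4 the value of *Lama3* was -0.23 (unadjusted p = 0.219, limma), and without KO control replicate 4 that of *Itga5* was -0.35. At day 2, *Lamc3* was detected in only 2 of 4 WT samples and 1 of 4 KO samples, and its value and that of *Lamb1* lost an unadjusted p under 0.05 when single samples were left out. The time*genotype interaction was passed by 0 of 37 members (0% of all genes), and by 0 at an unadjusted p under 0.05, the lowest being 0.143 for *Lamc3* (limma F test). The paper does report a small set of genes whose lesion response differed by genotype. It used a SAM time course beside the limma interaction, and SAM was not run here. The 0% is therefore not the paper's result.

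The intervals show what size of difference these arrays leave possible. Of the 12 genes that changed with the lesion, the 95% interval of KO minus WT lay within 1 log2 unit of 0 for 11 in controls, 12 at day 2 and 12 at day 5. For *Itga7* at day 5 it ran from -0.47 to 0.22, for *Itgb1* from -0.28 to 0.34, for *Itgam* from -0.62 to 0.25 and for *Lamb3* from -0.52 to 0.93. At day 2, the KO value was below WT for 29 of 37 members, with a median size of 0.20, and for 21 in controls and 21 at day 5. The share below WT over all genes was not computed, and the members were measured in the same samples. Slide 1 held 1 KO day 2 sample and 0 WT day 2 samples. At day 5, slide 2 held 2 KO and 0 WT samples, and slide 3 held 0 KO and 2 WT samples. These counts are therefore no result about the members.

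**Figure D3:**
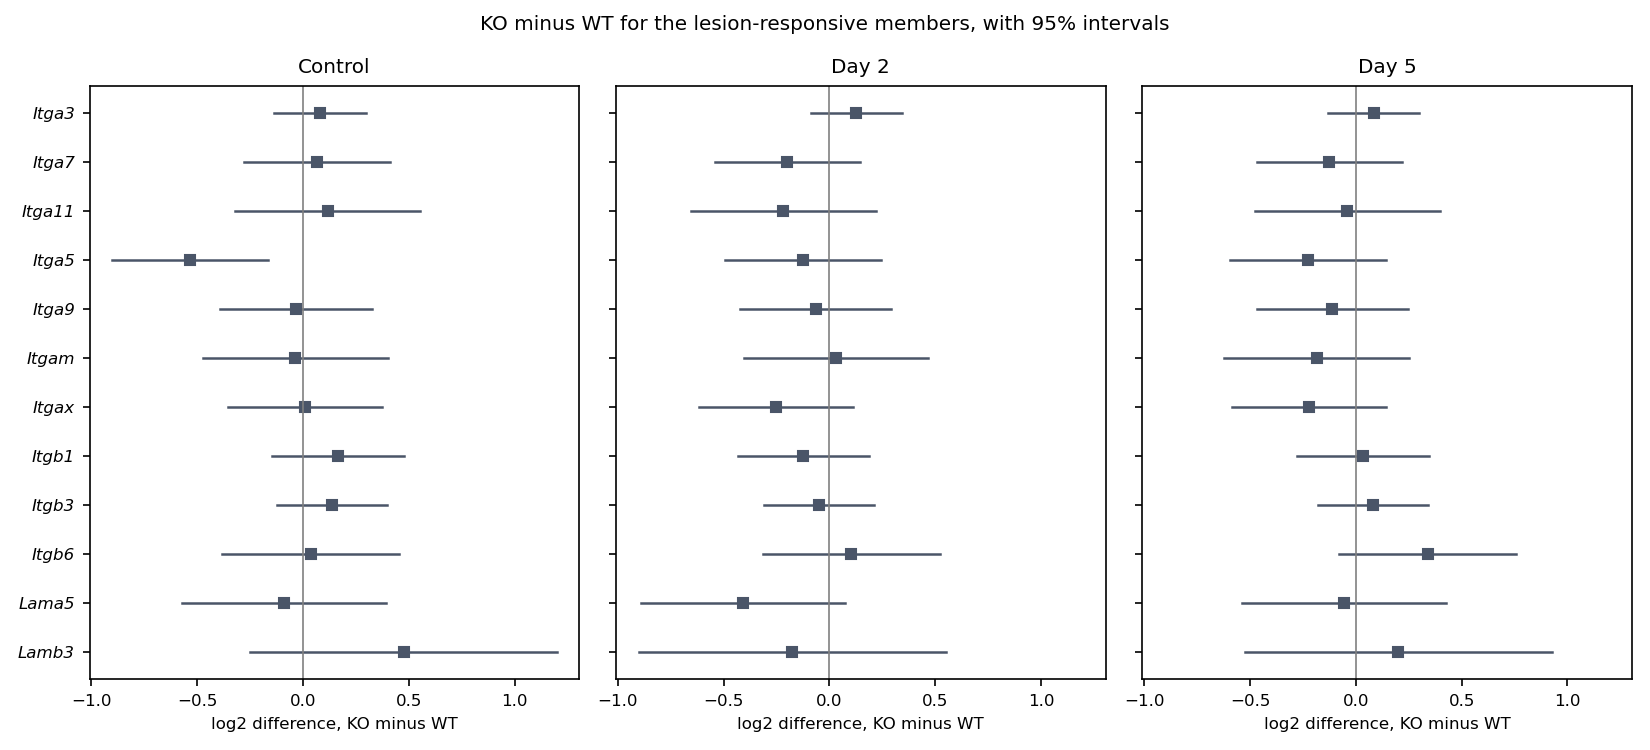
Log2 difference of KO minus WT in controls, at day 2 and at day 5 for the 12 members that changed with the lesion, with 95% intervals from limma. The points lie between -0.54 and 0.48, and no difference passed the adjusted threshold. The control value of *Lamb3* sets samples against each other that were all below background.

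Genes that work with integrins moved both ways. Of 28 genes of the integrin adhesion complex, which links integrin tails to actin and to kinases, 15 changed by the F test (26.3% of all genes and 36.1% of detected ones did), with 9 higher and 5 lower at day 2 and 7 higher and 6 lower at day 5. *Fermt3*, the kindlin of blood cells, rose by 0.73 and 1.09, and *Zyx*, a focal adhesion protein, by 0.51 and 0.75. *Parvg*, the parvin of leukocytes, rose by 0.48 and 0.72. *Tln2*, the talin enriched in brain and muscle, fell by 0.60 and 0.79. The list's median was 0.09 at day 2 and 0.08 at day 5. *Fermt1* was above background in no sample.

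Few matrix ligands other than laminins passed. Of 22 listed, 2 passed the F test (26.3% of all genes did), with 1 higher and 3 lower at day 2 and 1 higher and 1 lower at day 5. The 2 were *Spp1*, which encodes osteopontin, with values of 0.47 and 0.59 of which that at day 5 passed, and *Fbln2*, a basal lamina protein, lower by 0.31 and 0.27. Their medians were -0.01 and 0.09. Of 14 other surface partners of integrins and laminins, 10 changed by the same test, with 7 higher at each time point, and 2 lower at day 2 and 3 at day 5. *Sdc1*, a syndecan that binds laminins through its sugar chains, rose 5.64-fold at day 2 and 7.80-fold at day 5 (adjusted p = 5.80e-13 and 2.67e-14, limma). *Plaur*, the urokinase receptor, rose 6.65-fold and 4.70-fold. *Cd44*, the hyaluronan receptor, rose by 0.83 and 0.34 on the log2 scale, and *Cd9*, a tetraspanin that associates with *Itgb1*, fell by 0.25 and 0.64. No gene of these 3 lists differed between KO and WT.

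**Figure D4:**
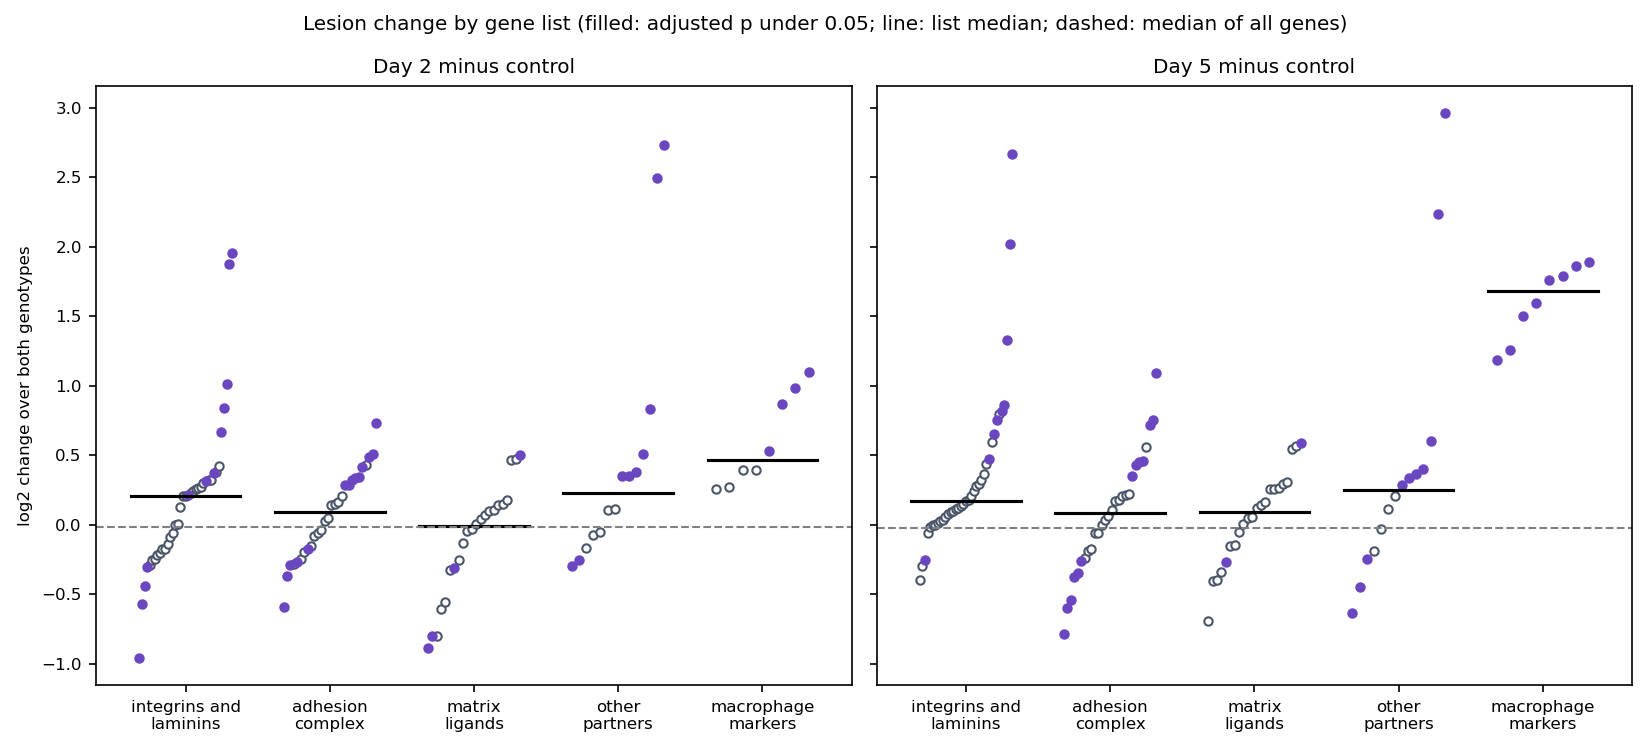
Log2 change from control over both genotypes for each gene of 5 lists at day 2 (left) and day 5 (right); each point is a gene, filled where adjusted p was under 0.05, black lines are list medians and the dashed line is the median of all genes. All 8 macrophage markers lie above 1 at day 5, whereas the integrins and laminins spread from -0.40 to 2.67.

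RefSeq promoter sequences on GRCm38.p6, from 250 bases before to 50 bases after a transcription start, were at hand for 24 of the 37 genes, in 27 windows. They were searched on both strands for the NFIL3 site TTANGTAA, the AP-1 site TGANTCA and the CRE TGACGTCA. The NFIL3 letters occurred in 0 of 27 windows, against 2.32% of all 32851 promoters, and the CRE in 0 of 27, against 1.79%. The AP-1 letters occurred in 3 of 27 windows, against 7.81% of all, namely those of *Itga3*, *Itga9* and *Itgax*. Only in *Itgax* did they lie before the start, 56 bases upstream. The stretch of 150 bases that ends at the *Itgax* start, chr7:128129400-128129549 on the plus strand, is shown because no other member window held the letters before the start, with the AP-1 letters in capitals. A match of letters is a description and not evidence of binding.
Itgax: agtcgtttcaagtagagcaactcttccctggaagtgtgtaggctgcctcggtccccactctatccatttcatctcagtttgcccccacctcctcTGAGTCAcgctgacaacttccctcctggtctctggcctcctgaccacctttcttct

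How large these changes appear depends on the background correction, above all for dim probes. For *Lamb3* at day 5, normexp with an offset of 50 gave 0.57 and the processed signals of the scanner software 3.72, for *Itgam* 0.50 and 1.67, and for *Itgax* 0.26 and 0.80. For *Itga5* at day 5 the values ran from 0.15 without background subtraction to 0.91 with the processed signals. At day 2, normexp gave -0.17 for *Itgb6* in place of -0.57, -0.25 for *Itga9* in place of -0.45 and 0.52 for *Lama5* in place of 0.84. With the probes of a gene averaged, *Itgb1* changed by 0.62 and 0.59 in place of 1.01 and 0.82. *Itga7*, a bright probe, stayed between 1.95 and 2.07 at day 5. Within each of the 3 slides the changes of *Itga7*, *Itgb1*, *Itgam*, *Itga5*, *Lama5* and *Lamb3* were positive at both time points, although slide 1 held only 1 day 2 sample.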

How the data were processed

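The authors hybridized amplified RNA of 24 samples to 12 Agilent 4x44K arrays on 3 slides, a different sample in each dye, and extracted the scans with Agilent Feature Extraction 10.7.3.1. The deposited files hold foreground and background intensity per spot and channel, not normalized. From these, following the study's methods, mean foreground and median background intensities were corrected by the Edwards method, quantile normalized over 24 channels and put on a log2 scale in limma 3.58.1 (R 4.3.3, statmod 1.5.0, data.table (version 1.17.8)). Control and outlier spots were left out (417 probe values missing) and spots of a probe averaged. lmFit and eBayes fitted 1 mean per group to all 24 samples. Benjamini-Hochberg adjustment ran over 41174 probes, and calls used an adjusted p of 0.05. Group labels came from titles. The brightest probe stood for a gene. Sample values are given for members that passed the F test and changed at least 1.5-fold, and up to 4 passing genes are named per list. Members and lists were chosen with earlier results of these data known. The study states independent replicates, but the labels do not tie samples to animals, and the number of arrays limits precision. Code was tested on simulated data. Alternatives varied background correction, foreground, normalization, outlier spots, a filter (at least 4 samples above background), probe averaging, dye, slide, array, array partner, replicate number and eBayes trend, and left out each sample. The values of 1 member are not reported here.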

Additional observations from a re-analysis of the deposited data

Results flagged for a closer look

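In 12 of 215 groups of 4 samples, over 36 of the genes, 1 sample lay so far from the others that its gap to the nearest took more of the range than Dixon's 95% critical value for 4 samples allows. Chance alone marks about 1 in 20. For *Lama3* these were WT control replicate 4 (8.49, others 5.26 to 5.73) and KO control replicate 4 (5.56, others 5.10 to 5.14). The first decides the calls of the brightest *Lama3* probe as given above. For *Lamb3* it was KO day 5 replicate 1 (5.27, others 6.01 to 6.12), which was well above background and above all controls. For *Itgav*, WT control replicate 2 read 6.89 (others 7.05 to 7.07) and WT day 2 replicate 3 read 7.98 (others 6.96 to 7.13). For *Itgb3*, KO day 5 replicate 3 read 9.56 (others 9.21 to 9.23), and for *Itgb4*, KO control replicate 1 read 10.73 (others 11.58 to 11.68). The other samples were of dim probes. For *Itga10*, WT control replicate 3 read 3.14 and KO day 5 replicate 4 read 6.90. *Itga2* read 3.31 in KO control replicate 4, *Itga8* 2.70 in KO day 2 replicate 2 and *Lama1* 3.88 in KO day 5 replicate 3. The cause was not tested.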

How the results depend on the processing

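Of 456 counts of members over 38 alternatives (14 settings and 24 left-out samples), 449 stayed within 1.5 times the reported count. The count for day 5 minus day 2 was 3 in place of 6 without WT day 2 replicate 1, WT day 2 replicate 2, WT day 5 replicate 3 or KO day 5 replicate 3. The count in KO at day 2 was 4 in place of 7 with the median foreground, without KO control replicate 3 or without KO day 2 replicate 4. Leaving out each sample in turn, the counts ranged from 12 to 15 for the F test, 9 to 13 at day 2, 8 to 13 at day 5, 3 to 7 for day 5 minus day 2, 4 to 7 and 5 to 8 in WT at day 2 and day 5, and 4 to 8 and 5 to 7 in KO. KO minus WT and the interaction gave 0 members under every alternative. Of 722 values for the members named in the F test, 695 kept their direction and their call, 27 lost the call and 0 reversed. The lost calls were *Itga5* at day 2 (5 settings and 10 left-out samples), *Itga3* at day 2 (the replicate block and 9 left-out samples), and *Itga3* at day 5 and *Itgb3* at day 2 with probes averaged (-0.18 and -0.11). The cause was not tested. With the replicate number as a block the counts were 12 for the F test, 10 at day 2, 11 at day 5, and 6 and 8 at day 2 in WT and KO. Whether the numbers pair the samples could not be settled. Of 60 same-numbered pairs of samples, 18 had deviations that correlated above 0.1, and 17 of 24 samples were closest to their own number. The median correlation was 0.07, against 0.04 for other numbers with the same dye. The labels do not name animals, so these values cannot decide it. The sizes of *Lamb3*, *Itga5*, *Itgam*, *Itgax*, *Itgb6*, *Itga9* and *Lama5* moved by over 1.5 times with the background correction, that of *Itgb1* at day 2 with probes averaged, and among the left-out samples *Lama3* passed only without WT control replicate 4.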
